A study of Capra hircus with 9 samples.

Results

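The comparison was between the submandibular glands of goats aged 12 months and goats aged 24 months, the older ages of a series that also holds kids. Its members were the 6 libraries whose labels give those ages, of 9 libraries in all, 3 at 12 months and 3 at 24 months. Each library came from the gland of a different female Lubo goat. The study called the 12-month goats unbred and adolescent (group B) and the 24-month goats adult (group C). It does not state whether the 24-month goats had been bred, so any difference in breeding status cannot be told apart from age. Its purpose was to follow gland transcripts over development. All goats were healthy, were kept under the same conditions with free access to feed, and were fasted and anaesthetised with xylazine before slaughter. No treatment or genotype separated the groups. Ribosomal RNA was removed and the rest of the RNA of the whole gland was sequenced, so each value is an average over acini, ducts, vessels, nerves and immune cells.

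The submandibular gland is one of the large salivary glands. Its acini release mucins and small secreted proteins, and drive fluid into the saliva through chloride uptake by SLC12A2 and water flow through AQP5. Its ducts then modify the salt content, and plasma cells around the acini supply immunoglobulin A, which the epithelial receptor PIGR carries into the saliva. Genes of the PLUNC family of lipid-binding proteins, proline-rich proteins, odorant-binding proteins and lactoperoxidase are typical products of such glands.

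The values were expected counts per transcript, estimated counts that share reads among transcripts, which were summed here to 21229 genes. Total expected counts were 18231894 to 21065278 in the 12-month libraries and 22040776 to 24901065 in the 24-month libraries. Levels are given as CPM, which are counts relative to the library size after TMM scaling, or as a percent of a library's counts. Neither is corrected for gene length, so both compare libraries and not genes. A log2 fold change is the 24-month level over the 12-month level, given with its standard error (SE), and a nominal p is a p before adjustment. All 12 listed markers of the salivary epithelium could be tested. Across the libraries EPCAM was between 186 and 394 CPM and AQP5 between 414 and 931 CPM, while MUC5B fell to 0.4855 CPM in 24-month replicate 1.

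The 24-month libraries did not form a uniform group. Over 14124 genes, log2(CPM + 1) in 24-month replicate 1 correlated with the 12-month libraries at r of 0.972, 0.979 and 0.974, and with 24-month replicates 2 and 3 at 0.942 and 0.917. The 12-month libraries correlated among themselves at 0.974 to 0.978, and 24-month replicates 2 and 3 at 0.968. These values describe the libraries across genes, which are not independent replicates. The labels give no batch, date or RNA quality to set beside this split, and its source was not tested. Genes above 0 counts numbered 15985 in 24-month replicate 1, 16070 to 16246 in the 12-month libraries, and 15653 and 15668 in 24-month replicates 2 and 3. A mislabelled library, a difference in RNA quality and a difference between goats cannot be told apart here, so any 24-month value of replicate 1 carries that doubt. The values below are given per library, as a range over the libraries of an age or as a fold change. Counts of most lists are also given without 24-month replicate 1. That library was singled out because it lay with the 12-month libraries, so leaving it out widens the difference between the ages by construction, and the counts without it are no support for a difference.

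**Figure D1:**
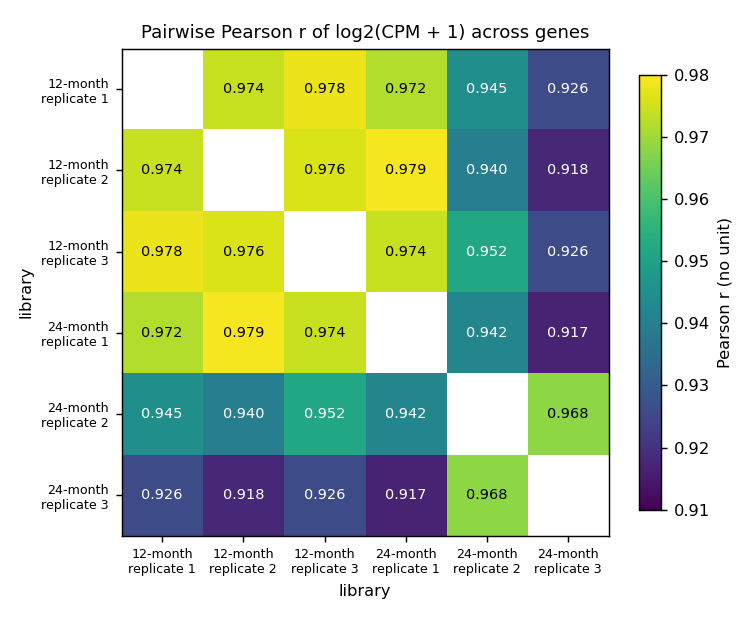
Pearson r of log2(CPM + 1) across 14124 genes for each pair of the 6 libraries, with the colour giving r. The block of high values at upper left holds the 12-month libraries and 24-month replicate 1, and 24-month replicates 2 and 3 form a pair at 0.968.

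The spread between the libraries of an age was larger at 24 months. The median standard deviation of log2(CPM + 1) was 0.186 among the 12-month libraries and 0.404 among the 24-month libraries, and 11155 genes (79.0%) had the larger SD at 24 months. Pairs of libraries gave 0.128 to 0.165 at 12 months. At 24 months the pairs gave 0.222 for replicates 2 and 3, 0.334 for replicates 1 and 2 and 0.4695 for replicates 1 and 3. The biological coefficient of variation in edgeR was 0.238 at 12 months and 0.401 at 24 months, and 0.293 without 24-month replicate 1. An SD above 1 on the log2 scale was found for 148 genes at 12 months and for 326 genes at 24 months, with 61 genes in both counts. Among the 6 libraries, 24-month replicate 3 held the highest value for 4415 genes and the lowest for 4332, more than any other library in each direction.

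**Figure D2:**
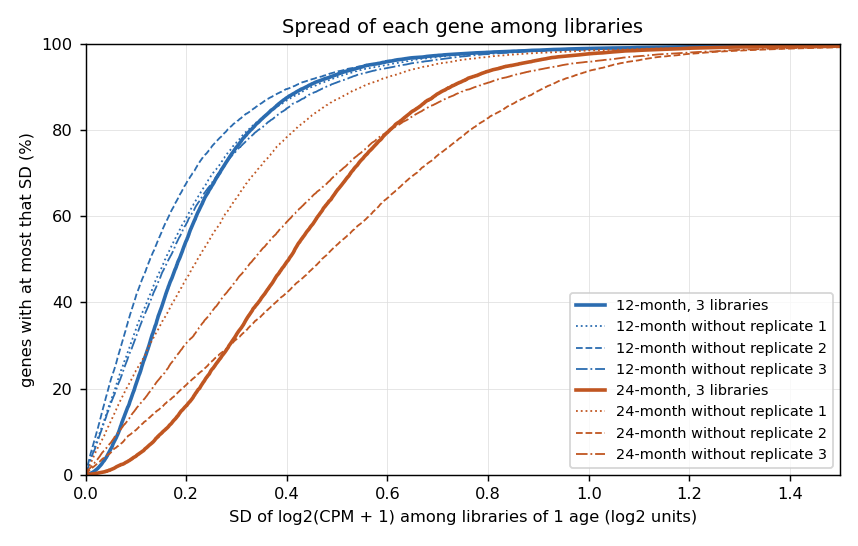
Percent of genes (vertical axis) whose SD of log2(CPM + 1) among libraries of the same age is at most the value on the horizontal axis, for all 3 libraries of an age (thick lines) and with each library left out (thin lines). The thick 24-month line lies to the right of the 12-month line, and the thin line without 24-month replicate 1 lies closest to the 12-month lines.

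Between 12 and 24 months, 0 of 14124 genes (0.0%) were called by edgeR's quasi-likelihood test, where a call needed an adjusted p under 0.05 together with a log2 fold change beyond 2 in either direction, and the smallest adjusted p was 0.0593. DESeq2's Wald test called 12 genes and edgeR's exact test 14. At a nominal p under 0.05 there were 1628 genes, of which 1237 were higher at 24 months (8.76% of the genes tested) and 391 were lower (2.77%). Thus 76.0% of these genes were higher under TMM scaling, and 60.9% under upper-quartile scaling. The share was 50.3% with a replicate block, 53.1% with all 9 libraries, and 51.6% without 24-month replicate 3. All 3 libraries at 24 months lay above all 3 at 12 months for 1321 genes (9.35%), and below them for 852 genes (6.03%). The median log2 fold change over all genes was 0.04. Without 24-month replicate 1, 168 of 14389 genes (1.17%) were called, 41 higher and 127 lower, and 4786 genes (33.3%) had an adjusted p under 0.05. At a nominal p under 0.05, 25.2% of the genes were then higher and 21.1% lower, and the counts of lists without that library are read against these shares. Without any other library the number called was between 0 and 2. At a nominal p under 0.05, 2.4% of the genes were higher and 1.42% lower without 12-month replicate 1, 3.67% and 1.6% without 12-month replicate 2, and 2.28% and 1.78% without 12-month replicate 3. They were 3.61% and 1.29% without 24-month replicate 2, and 2.15% and 2.02% without 24-month replicate 3. These shares are below those with all 6 libraries, and counts of lists in those fits are read against them. For the genes named below that had a nominal p under 0.05, the edgeR adjusted p was 0.417 unless another value is given. None of them was called with all 6 libraries by edgeR's quasi-likelihood test, and "higher" and "lower" describe the fitted difference.

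The 10 most abundant genes took 27.1%, 33.2% and 21.4% of the counts in 12-month replicates 1, 2 and 3, and 37.8%, 33.9% and 24.1% in 24-month replicates 1, 2 and 3. The means were 27.2% ± 5.92 (SD, n = 3) and 32.0% ± 7.05 (SD, n = 3), and a two-sided exact permutation test gave p = 0.4, where the smallest p possible with these libraries is 0.1. The groups overlapped. When only annotated RefSeq transcripts were counted, the 10 most abundant took 12.1% ± 0.991 at 12 months and 8.39% ± 1.33 at 24 months, without overlap (SD, n = 3, exact permutation p = 0.1). The difference thus turned its sign. New transcripts assembled by the authors carried all the counts of LATH, IGHA1, MUC7 and the mucin-7-like transcript, and annotated transcripts carried 8.08% to 19.3% of those of MUC19.

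**Figure D3:**
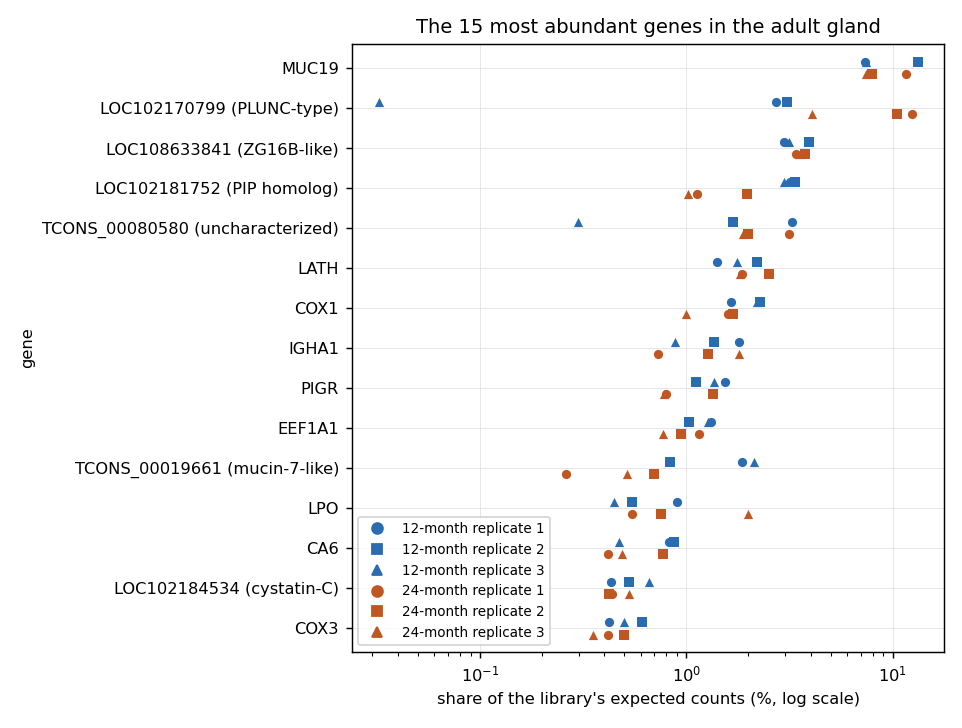
Share of each library's expected counts (horizontal axis, log scale) for the 15 genes with the highest mean share, in 6 libraries coloured by age. Mucin-19 leads, LOC102170799 ranges from 0.0322% to 12.4%, and the PIP homolog and the mucin-7-like transcript lie lower in every 24-month library.

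Among the mucins, MUC19, the main gel-forming mucin of these libraries, took 7.32%, 13.2% and 7.45% of the counts at 12 months and 11.6%, 7.91% and 7.44% at 24 months. Its groups overlapped, with a log2 fold change of 0.12 (SE 0.374). The small mucin-7 class was lower in every 24-month library. TCONS_00019661, a new transcript whose product is described as mucin-7-like, was at 17171, 8466 and 18350 CPM at 12 months and at 2835, 7781 and 5243 CPM at 24 months, a log2 fold change of -1.47 (SE 0.425). MUC7 itself was at 1196, 1332 and 1591 CPM and then at 1067, 619.9 and 452 CPM, and its log2 fold change was -0.945 (SE 0.331). Reads of these like-named transcripts may have been divided between them. MUC15, a membrane mucin, was at 85.2, 178 and 108 CPM at 12 months and at 86.6, 51.2 and 46.0 CPM at 24 months, so that 24-month replicate 1 lay inside the 12-month range. MUC5B, another gel-forming mucin, spanned 0.851 to 24.2 CPM at 12 months and 0.4855 to 122 CPM at 24 months.

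None of the 4 PLUNC family members given here had a nominal p under 0.05. LOC102170799, described as short palate, lung and nasal epithelium carcinoma-associated, took 2.73%, 3.08% and 0.0322% of the counts at 12 months and 12.4%, 10.5% and 4.08% at 24 months. Every 24-month library lay above every 12-month library, and the value of 12-month replicate 3 was far under the others. Its log2 fold change was 2.37 (SE 1.12), 1.75 without 12-month replicate 3, and -0.39 with annotated transcripts only. At most 0.0132% of its counts came from the annotated transcript, and the rest from 1 new transcript. LATH, a BPIFA4P-type relative, took 1.41%, 2.201% and 1.76% at 12 months and 1.87%, 2.53% and 1.82% at 24 months. BPIFB2, of the long members of this family, was at 1397, 1671 and 917 CPM and then at 1500, 1913 and 2875 CPM (log2 fold change 0.66, SE 0.328), with overlap. BPIFB1 had a log2 fold change of -1.37 (SE 0.639) at levels between 4.515 and 67.85 CPM, and the groups overlapped. With 1 library left out it ranged from -2.49 to -0.915, and that of BPIFB2 from 0.304 to 0.856.

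LOC102181752, a homolog of prolactin-inducible protein (PIP), a small secreted protein of saliva, took 3.18%, 3.35% and 2.98% of the counts at 12 months and 1.13%, 1.98% and 1.02% at 24 months. The groups did not overlap and the log2 fold change was -0.995 (SE 0.341). The prolactin receptor PRLR was lower in every 24-month library, at 174, 228 and 175 CPM against 135, 102 and 112 CPM (log2 fold change -0.72, SE 0.234). In its list of hormone receptors, 0 of 8 tested genes were higher and 1 lower at a nominal p under 0.05, against 8.76% and 2.77% of all genes. The list had 0 and 3 without 24-month replicate 1, and 0 higher with 0 or 1 lower without any other library. A link between PRLR and the PIP homolog was not tested. LOC108633841, a ZG16B-like lectin of secretory granules, had overlapping groups, with 2.96% to 3.93% of the counts at 12 months and 3.42% to 3.76% at 24 months. TCONS_00080580, a new transcript of an uncharacterized protein, took 3.235%, 1.69% and 0.299% at 12 months and 3.14%, 1.99% and 1.88% at 24 months.

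The basic proline-rich proteins, salivary proteins with repeated proline-rich stretches, had higher fitted levels at 24 months. LOC102170599 was at 86.4, 371 and 161 CPM at 12 months and at 455, 2610 and 3977 CPM at 24 months, a log2 fold change of 3.51 (SE 0.765). 24-month replicate 1 was only just above the highest 12-month library. LOC108634747 was at 2607, 1326 and 1704 CPM and then at 2793, 4507 and 6678 CPM, and its log2 fold change was 1.31 (SE 0.378). LOC102178801 was at 494, 3380 and 353 CPM at 12 months and at 4286, 5183 and 6446 CPM at 24 months (log2 fold change 1.91, SE 0.733). Its log2 fold change was 3.65 without 12-month replicate 2. The partial copy LOC108634775 was at 8.59 to 13.1 CPM at 12 months and at 12.5, 33.8 and 39.7 CPM at 24 months. Reads of these like-named copies may have been divided among them.

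Several odorant-binding proteins, small carriers of hydrophobic molecules, varied widely between libraries of the same age. The partial new transcript TCONS_00079812 varied less, at 5.675 to 10.45 CPM at 12 months and at 4.04 to 8.05 CPM at 24 months. LOC108634363 was at 2.58, 18.5 and 3.07 CPM at 12 months and at 25.4, 55.8 and 40.1 CPM at 24 months, and its log2 fold change was 2.33 (SE 0.684), or 3.83 without 12-month replicate 2. LOC108633210 was at 0.0478, 20.5 and 2.41 CPM at 12 months and at 33.5, 86.8 and 53.9 CPM at 24 months, again without overlap. The most abundant of them, LOC108634314, ranged from 150 to 5972 CPM at 12 months and from 1025 to 4135 CPM at 24 months, so its groups overlapped. The new transcript TCONS_00061101 was at 1381 CPM in 12-month replicate 2 and at 503 CPM in 24-month replicate 1, and at 5.495 CPM or less in the other libraries.

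Among the defence proteins, lactoperoxidase (LPO), which makes an antimicrobial oxidant in saliva, took 0.903%, 0.542% and 0.446% of the counts at 12 months and 0.542%, 0.752% and 1.99% at 24 months. The log2 fold change of 0.96 (SE 0.468) was 0.22 without 24-month replicate 3. Lactoferrin (LTF), an iron-binding protein, was at 258, 11.2 and 5.96 CPM at 12 months and at 10.5, 10.2 and 164.5 CPM at 24 months, so 1 library of each age stood high. WFDC2, a protease inhibitor of the WAP family, was at 132 to 157 CPM at 12 months and at 141, 313 and 374 CPM at 24 months (log2 fold change 0.95, SE 0.338), the fold change being 0.60 without 24-month replicate 3. TCN1, a vitamin B12 carrier of saliva, was at 2.15, 2.67 and 3.73 CPM at 12 months and at 10.2, 6.20 and 44.6 CPM at 24 months, a log2 fold change of 2.83 (SE 0.673) that was 1.48 without 24-month replicate 3. CRISP3, a secreted cysteine-rich protein, was lower in every 24-month library, at 82.2, 125 and 82.1 CPM against 75.55, 57.9 and 40.3 CPM. CA6, the secreted carbonic anhydrase, and LOC102184534, cystatin-C, had log2 fold changes of -0.185 (SE 0.369) and -0.01 (SE 0.256). LOC102177186, kallikrein-1, a secreted protease, was at 1539, 3602 and 3624 CPM at 12 months and at 1898, 5483 and 6791 CPM at 24 months, with overlap.

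A new transcript described as a double-headed protease inhibitor of the submandibular gland (TCONS_00023921) had 8.27, 16.9 and 4.92 CPM at 12 months and 0 counts in each 24-month library. Against a floor of 3 counts per library it was at least 72.0-fold lower at 24 months, with an edgeR adjusted p of 0.0593. It was the smallest p of all genes that were lower.

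Over the list of secretory products named by symbol, 30 of 66 genes could be tested: 3 were higher and 4 lower at a nominal p under 0.05, with a median log2 fold change of -0.18 against 0.04 over all genes. Over the 53 tested genes found by product name, 9 were higher and 5 lower, with a median of 0.315. These products include intracellular proteins with proline-rich in their names, such as BAG6, PRR5 and PRR14, which were among the 9. Over all genes 8.76% were higher and 2.77% lower. These lists had 6 higher and 6 lower, and 19 higher and 9 lower, without 24-month replicate 1. With any other library left out the first had 2 to 5 higher and 2 to 5 lower, and the second 4 to 10 and 4 to 7.

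For the machinery of secretion, the medians of the lists were 0.09 and -0.05, against 0.04 over all genes. Of 41 genes for entry into the endoplasmic reticulum and folding there, 3 were higher and 1 lower, which is near the shares over all genes (8.76% and 2.77%). There were 10 and 5 without 24-month replicate 1, and 0 higher with 0 or 1 lower without any other library. KDELR1, which returns proteins to that compartment, was at 69.7 to 71.5 CPM at 12 months and at 72.2, 130 and 152 CPM at 24 months. P4HB, a disulfide isomerase, was at 1244 to 1504 CPM and then at 1606, 2486 and 2044 CPM. HSP90B1, a chaperone of the same compartment, was lower, at 935, 698 and 880 CPM against 619, 573 and 479 CPM. Of 24 genes for mucin O-glycosylation, 1 was higher and 3 were lower, and without 24-month replicate 1 there were 3 and 9, or 0 to 2 and 1 to 2 without any other library. ST6GALNAC1, which adds sialic acid to mucin glycans, was at 212, 330 and 223 CPM at 12 months and at 392, 434 and 517 CPM at 24 months (log2 fold change 0.81, SE 0.259). The lower genes were GCNT1, C1GALT1 and GALNT7. GCNT1, which branches these glycans, was at 52.2 to 64.9 CPM and then at 47.2, 24.0 and 13.6 CPM, and C1GALT1 was at 14.2 to 16.03 CPM and then at 12.3, 6.83 and 4.36 CPM. GALNT7, which starts or extends such glycans, had a log2 fold change of -0.80 (SE 0.281).

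For fluid secretion, the sodium-potassium-chloride cotransporter SLC12A2, which loads acinar cells with chloride, was at 2175, 2724 and 3110 CPM at 12 months and at 1816, 1236 and 1249 CPM at 24 months. The groups did not overlap and the log2 fold change was -0.90 (SE 0.274). With all 6 libraries it was the only lower gene of 19 in this list at a nominal p under 0.05, against 3 that were higher, and over all genes 2.77% were lower and 8.76% higher. The list had 10 higher and 4 lower without 24-month replicate 1, and 1 higher with 1 or 2 lower without any other library. ADRB1, the beta-1 adrenergic receptor, was at 2.72, 2.77 and 2.79 CPM at 12 months and at 5.39, 4.63 and 7.35 CPM at 24 months (log2 fold change 1.07, SE 0.338). ITPR3 and STIM1, of the calcium signal, had log2 fold changes of 0.75 (SE 0.309) and 0.66 (SE 0.286), which were 0.30 and 0.25 without 24-month replicate 3. At a nominal p above 0.05, AQP5 had 0.52 (SE 0.294) and the muscarinic receptor CHRM3 had -0.26 (SE 0.231). In the duct list 1 of 11 genes was higher, ATP6V0A4, a proton pump subunit, whose log2 fold change was 0.65 (SE 0.291), in overlapping groups, and 0.43 and 0.42 without replicate 3 of the 12-month and of the 24-month goats. With DESeq2 size factors, upper-quartile scaling, scaling without the 100 most abundant genes, the Wald test and the exact test 0 of the 11 were at a nominal p under 0.05, and without 24-month replicate 1 there were 5 higher and 1 lower, and without any other library 0 to 2 higher and 0 lower. Of 16 epithelial transcription factors, SPDEF, a regulator of secretory cells, was higher (85.1 to 100.5 CPM against 99.8, 190 and 189 CPM) and ETV1 was lower (365 to 442 CPM against 200 to 299 CPM). Of these factors, 5 were higher and 3 lower without 24-month replicate 1, and 0 higher with 0 or 1 lower without any other library.

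**Figure D4:**
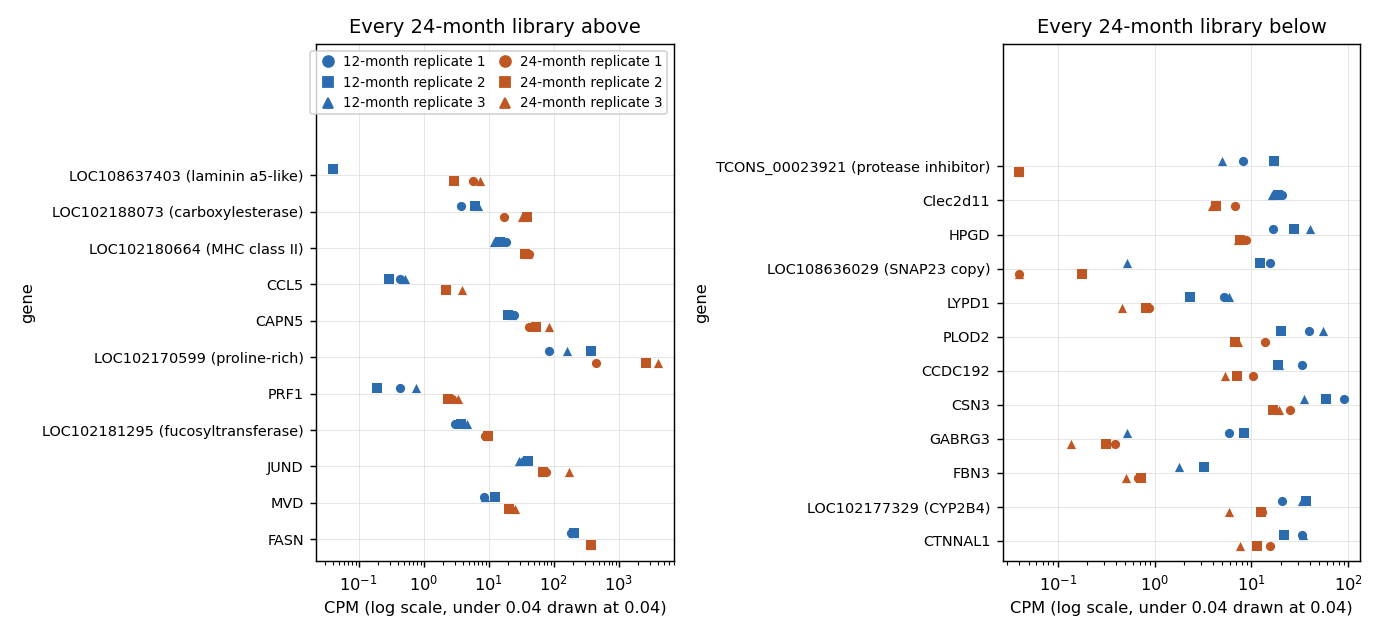
CPM per library (horizontal axis, log scale) of genes from the 12 with the smallest nominal p in each direction, 11 of them in the left panel, among genes whose groups do not overlap and whose higher group averages at least 1 CPM. In FASN the 24-month libraries nearly coincide at 372 to 375 CPM, while LOC102170599 spreads from 455 to 3977 CPM.

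The genes with the smallest p among those higher in every 24-month library were of several kinds. LOC108637403, laminin subunit alpha-5-like, had 0 counts in the 12-month libraries and was at 5.78, 2.92 and 7.35 CPM at 24 months, at least 37.3-fold higher against the floor of 3 counts per library. Its edgeR adjusted p was 0.0593. LOC102188073, a liver-type carboxylesterase, was at 3.82, 6.16 and 6.95 CPM at 12 months and at 17.2, 39.2 and 32.4 CPM at 24 months (log2 fold change 2.39, SE 0.368, edgeR adjusted p = 0.349). LOC102180664, a class II histocompatibility antigen, was at 18.4, 15.1 and 12.2 CPM and then at 42.5, 36.2 and 41.0 CPM. FASN, which makes fatty acids, was at 186, 203 and 201 CPM and then at 372, 375 and 374 CPM, and its log2 fold change was 0.93 (SE 0.211). MVD, of cholesterol synthesis, had a log2 fold change of 1.16 (SE 0.263). CAPN5, a calpain protease, JUND, a transcription factor, and LOC102181295, a fucosyltransferase, had log2 fold changes of 1.41, 1.58 and 1.33, and that of JUND was 1.00 without 24-month replicate 3. For LOC102180664, FASN and MVD, 24-month replicate 1 stood with the other 24-month libraries.

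Among the 12 genes with the smallest p that were lower, HPGD, which degrades prostaglandins, was at 16.7, 27.5 and 40.2 CPM at 12 months and at 8.84, 7.64 and 7.21 CPM at 24 months. Its log2 fold change was -1.83 (SE 0.333, edgeR adjusted p = 0.417). PLOD2, a lysyl hydroxylase of collagen, was at 39.6, 20.3 and 54.4 CPM and then at 13.8, 6.79 and 7.26 CPM. CSN3, kappa-casein, known as a milk protein, was at 91.0, 59.0 and 34.6 CPM at 12 months and at 25.0, 16.7 and 19.1 CPM at 24 months. LYPD1 and FBN3, a fibrillin of the matrix, were at 5.86 CPM or less in every library and had log2 fold changes of -2.64 and -2.11. LOC102177329, cytochrome P450 2B4, was at 20.5, 36.5 and 33.4 CPM against 12.8, 12.5 and 5.83 CPM. CTNNAL1, CCDC192 and the new transcript labelled Clec2d11, whose product is described only as hypothetical, had log2 fold changes of -1.36, -1.65 and -1.88, and the edgeR adjusted p of Clec2d11 was 0.36. LOC108636029, a SNAP23 copy, and GABRG3 were low in 12-month replicate 3 as well as at 24 months, at 0.520 CPM each in that 12-month library and at 0.388 CPM or less at 24 months.

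Of 7 tested markers of cytotoxic lymphocytes, all at low levels, 4 were higher in every 24-month library, including replicate 1, than in every 12-month library, as were 9.35% of all genes. In bulk tissue, fewer cells of a type and less RNA per cell cannot be told apart, nor can more cells and more RNA per cell. The summed level of the list was 2.86 to 7.99 CPM at 12 months and 15.3 to 17.7 CPM at 24 months. At a nominal p under 0.05, 4 of the 7 were higher and 0 lower, with a median log2 fold change of 1.24, and 8.76% of all genes were higher. CCL5, a chemokine of these cells, was at 0.430, 0.291 and 0.520 CPM and then at 2.185, 2.202 and 3.90 CPM (log2 fold change 2.72, SE 0.524). PRF1, the pore-forming perforin, was at 0.430, 0.194 and 0.7565 CPM and then at 2.77, 2.38 and 3.35 CPM (log2 fold change 2.605, SE 0.568). CTSW and NKG7 had log2 fold changes of 1.64 and 1.14. The other tested members were not uniform: KLRK1 was at 3.50 CPM in 24-month replicate 1 and at 0 and 0.413 CPM in replicates 2 and 3. With any 1 library left out, 3 to 5 of the 7 genes were higher at a nominal p under 0.05, and the share of all genes that were higher was 2.15% to 25.2%.

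T cell markers also had a higher sum in every 24-month library. Their summed level was 10.7 to 19.2 CPM at 12 months and 26.6 to 28.7 CPM at 24 months, and 4 of 9 genes were higher and 0 lower, with a median of 0.92. Over all genes 8.76% were higher. Under upper-quartile scaling 2 of the 9 were higher, and with annotated transcripts only 1 of the 9, where 5.9% and 6.01% of all genes were. With all 9 libraries 0 of 11 T cell genes were higher, where 1.68% of all genes were. LCK, the kinase of the T cell receptor, was at 1.58, 1.36 and 1.42 CPM at 12 months and at 3.35, 3.42 and 4.09 CPM at 24 months. CD6, CD5 and CD3D had log2 fold changes of 1.35, 1.105 and 0.92. CD2 was at 1.41 to 2.41 CPM at 12 months and at 1.47 to 2.04 CPM at 24 months, and CD4 overlapped as well. Without 24-month replicate 1, 4 of 10 T cell genes were higher and 0 lower. Without 12-month replicate 1 or 2, 1 of 10 T cell genes was higher, where 2.4% and 3.67% of all genes were.

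B cell genes gave 1 higher and 0 lower of 6, where 8.76% and 2.77% of all genes were. It was CD22, with 1.10, 1.21 and 1.18 CPM at 12 months and 2.33, 2.79 and 3.22 CPM at 24 months. Without 12-month replicate 1 there were 0 of 6, and with annotated transcripts only 0 of 5. CD79A, a defining B cell gene, was at 8.27 to 9.46 CPM and then at 3.25, 9.66 and 13.2 CPM. The lymph node stroma genes CCL21, CCL19 and CR2 had no member at a nominal p under 0.05, also without 24-month replicate 1. Their median log2 fold change was 0.87, against 0.04 over all genes. It was 0.18 without 24-month replicate 3 and 1.51 without 12-month replicate 1. CCL21 ranged from 2.765 to 16.3 CPM at 12 months and from 4.66 to 29.0 CPM at 24 months. The part of lymphoid tissue in the T cell and cytotoxic values was not tested.

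In the immunoglobulin A system, the J chain had the smallest p of the plasma cell genes. JCHAIN, which links immunoglobulin A dimers for transport, was at 2401, 2442 and 2140 CPM at 12 months and at 1605, 693 and 868 CPM at 24 months, and its log2 fold change was -1.14 (SE 0.331). IGHA1, the alpha heavy chain, took 1.80%, 1.37% and 0.8775% of the counts and then 0.732%, 1.275% and 1.80%. IGKC, the kappa light chain, was at 261, 817 and 28.0 CPM and then at 25.0, 1579 and 1438 CPM. PIGR, the receptor that carries the antibody across the epithelium, was at 1.53%, 1.11% and 1.355% at 12 months and at 0.798%, 1.34% and 0.7825% at 24 months. The other 9 plasma cell genes had no member at a nominal p under 0.05, so 1 of 10 was lower, where 2.77% of all genes were, and MZB1 was at 16.1 to 22.1 CPM and then at 8.59, 27.1 and 34.5 CPM. The difference between JCHAIN and the heavy chain was not tested.

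Of 9 macrophage genes, 4 were higher and 0 lower, with a median of 0.04, namely the complement genes C1QA, C1QB and C1QC and the receptor CSF1R, with log2 fold changes of 0.61, 0.75, 0.71 and 0.71. That of CSF1R was 0.33 without 24-month replicate 3. C1QB was at 31.8, 26.9 and 31.0 CPM and then at 39.0, 59.3 and 52.45 CPM. CD68, CD14, MRC1, MSR1 and AIF1, which mark the same cells, overlapped between ages, and without 24-month replicate 2 or 12-month replicate 2 the list had 0 of 9 genes at a nominal p under 0.05. In those fits 3.61% and 3.67% of all genes were higher, against 8.76% with all 6 libraries. Of 16 interferon-stimulated genes, 6 were higher and 0 lower, with a median of 0.54. ISG15 was at 0.765, 0.825 and 0.236 CPM and then at 1.02, 7.64 and 1.70 CPM, and IFI6 at 21.3 to 25.7 CPM and then at 40.15, 170.4 and 17.7 CPM. These values were highest in 24-month replicate 2, without which the list had 0 of 16 genes at a nominal p under 0.05, where 3.61% of all genes were higher, and a median of 0.09. Over the fits with 1 library left out the interferon list had 0 to 7 higher. With all 9 libraries 0 of 16 interferon genes, 0 of 10 macrophage genes and 4 of 8 cytotoxic genes were higher. In that fit 1.68% of all genes were. With 24-month replicate 1 left out, the macrophage list had 4 higher and 1 lower, the interferon list 4 and 0, the plasma cell list 3 and 1, the B cell list 1 and 0 and the cytotoxic list 4 and 0. Neutrophil genes left 1 testable member and erythroid genes left 0.

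**Figure D5:**
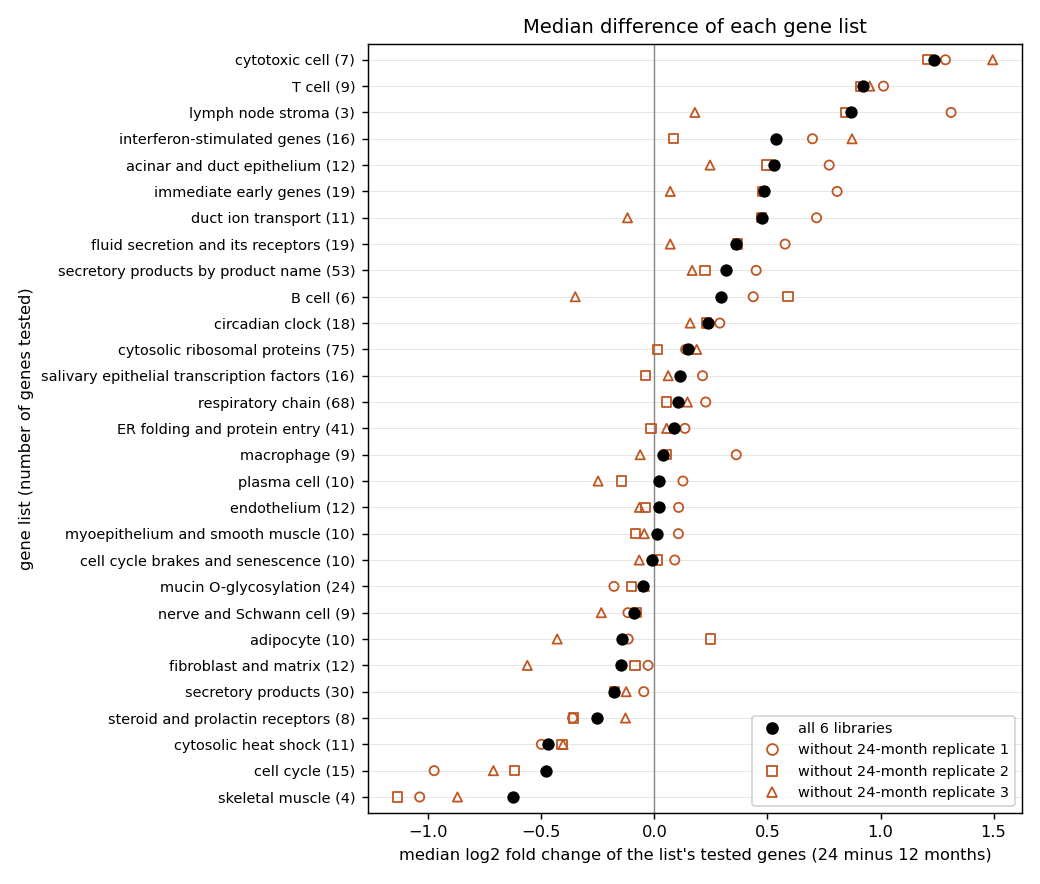
Median log2 fold change (horizontal axis) over the tested genes of each list, with all 6 libraries (filled circles) and without each 24-month library (open symbols), with the number of genes tested beside each name. Cytotoxic and T cell genes have medians of 0.91 or above in each of these settings, and interferon-stimulated genes drop to 0.09 without 24-month replicate 2.

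Over all genes the median was 0.04, with 8.76% higher and 2.77% lower. Of 75 cytosolic ribosomal protein genes, 11 were higher and 0 lower, with a median of 0.15 under TMM and of 0.08 to 0.11 under the other scalings. RPS9 was at 234, 196 and 234 CPM and then at 254, 536 and 441 CPM, and RPL8 at 469 to 557 CPM and then at 570, 1054 and 1034 CPM. Without 24-month replicate 2 this list had 0 genes higher and 1 lower of 76, against 3.61% and 1.29% over all genes. Without 12-month replicate 2 it had 0 and 0 of 76, against 3.67% and 1.6%. It had 26 higher and 8 lower without 24-month replicate 1, and 0 to 4 higher with 0 or 1 lower without any other library. The replicate block gave 3 of 75 higher, where 5.4% of all genes were, and the fit with all 9 libraries 1 of 75, where 1.68% were. Of 68 respiratory chain genes, 8 were higher and 1 lower, with a median of 0.10, and without 24-month replicate 1 there were 28 and 12, against 2 to 5 and 1 without any other library. NDUFB7 was higher and NDUFA5 was lower, with log2 fold changes of 1.00 (SE 0.305) and -0.91 (SE 0.284), and both belong to complex I. The mitochondrial transcripts COX1 and COX3 had log2 fold changes of -0.31 and -0.07. Of 11 cytosolic heat shock genes, 0 were higher and 2 lower: DNAJA1, at 51.5 to 77.2 CPM against 28.7 to 45.7 CPM, and HSPA4L. The median of the heat shock list was -0.47, and without 24-month replicate 1 it had 3 higher and 5 lower, against 0 and 1 to 4 without any other library. Of 18 circadian clock genes, 4 were higher and 0 lower, with a median of 0.24, and without 24-month replicate 1 there were 6 and 3. The clock list had 0 higher and 0 lower without 12-month replicate 1 (median 0.06) and without 12-month replicate 3 (median 0.08), and 1 to 3 higher with 0 or 1 lower without 12-month replicate 2 or 24-month replicate 2 or 3. CRY2 was at 31.9, 59.8 and 39.1 CPM and then at 69.0, 73.3 and 113 CPM, and PER1 reached 494 CPM in 24-month replicate 3 against 86.1 to 144 CPM in the other libraries. The hour of slaughter is not given in the labels. Of 19 immediate early genes, 3 were higher and 0 lower, with a median of 0.48, and without 24-month replicate 1 there were 7 and 0, against 1 to 3 and 0 without any other library. The median was 0.07 without 24-month replicate 3. NR4A3 and ATF3 were at 299 and 23.8 CPM in 24-month replicate 3 and at 6.88 and 1.53 CPM in 24-month replicate 2.

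Proliferation genes gave both directions. Of 15 cell cycle genes, 4 were lower and 2 higher, with a median of -0.48, where 2.77% of all genes were lower and 8.76% higher. There were 4 lower and 3 higher without 24-month replicate 1, and 0 to 5 lower with 0 or 1 higher without any other library. TOP2A, a topoisomerase of dividing cells, was at 6.59, 10.3 and 4.11 CPM at 12 months and at 3.06, 1.89 and 3.26 CPM at 24 months. RRM2, BUB1B and CENPF, needed for DNA precursors and mitosis, had log2 fold changes of -1.33, -1.39 and -1.305, and that of BUB1B was -0.68 without 12-month replicate 2. MCM3 and MCM5, which license replication, were higher, with 0.58 and 0.71. Without 12-month replicate 2, which held the highest values of TOP2A, RRM2, BUB1B and CENPF, 0 of 17 cell cycle genes were at a nominal p under 0.05, where 3.67% of all genes were higher and 1.6% lower. The senescence list gave 0 higher and 1 lower of 10, MDM2, against the same shares over all genes, and 0 lower without any 1 library other than 24-month replicate 1. In it CDKN1A, at a nominal p above 0.05, was at 3.12 to 5.48 CPM and then at 6.11 to 9.74 CPM (log2 fold change 0.77, SE 0.345). CDKN2A was not in the table.

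Stromal and other tissue markers were checked in the same way. Skeletal muscle markers summed to 253 CPM in 12-month replicate 2 and to between 6.05 and 13.2 CPM in the other 5 libraries, mostly from TTN at 205 CPM, and TTN in the other libraries was between 1.48 and 4.25 CPM. Adipocyte genes were highest in the same library for ADIPOQ, at 56.7 CPM against 3.06 to 25.6 CPM elsewhere, and 2 of 10 genes were higher, SCD and PLIN4, while the median of the list was -0.14. Over all genes 8.76% were higher and 2.77% lower. Without 12-month replicate 1 or 3, 0 adipocyte genes were higher, and the median was 0.85 without 12-month replicate 2. Of 12 fibroblast and matrix genes, 0 were higher and 3 lower, with a median of -0.15. Without 12-month replicate 1 there were 0 lower and the median was 0.11, and 1 to 3 were lower without any other library. POSTN was at 22.8, 15.6 and 6.19 CPM and then at 7.96, 2.56 and 4.27 CPM, LUM at 56.55 to 86.9 CPM and then at 59.6, 27.4 and 21.7 CPM, and PDGFRA at 47.3 to 62.9 CPM and then at 35.6 to 39.0 CPM. Of 10 myoepithelial and smooth muscle genes 1 was higher, KRT5, at 34.5 to 41.8 CPM against 53.8 to 67.1 CPM, and of 12 endothelial genes 1 was lower, the lymphatic PROX1. The medians of these lists were 0.01 and 0.02, against 0.04 over all genes. Without any 1 library other than 24-month replicate 1, 0 or 1 myoepithelial gene was higher and 0 to 2 endothelial genes were lower. Nerve genes had 0 of 9 members at a nominal p under 0.05. The 12 markers of the salivary epithelium had a median of 0.53, with 1 higher and 0 lower. Without 24-month replicate 1 they had 7 higher and 1 lower, and without any other library 0 and 0. With 24-month replicate 1 left out, the fibroblast list had 0 higher and 3 lower, the adipocyte list 2 and 1, the myoepithelial list 2 and 1, the endothelial list 1 and 0 and the nerve list 0 and 1. The senescence list then had 1 and 1. The part of these cells in the secretory differences was not tested.

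Among the 24-month libraries, some genes were high in 1 or 2 libraries only. By the SD of log2(CPM + 1) at a mean of at least 10 CPM, the 10 leading genes included MUC5B, TCONS_00061101 and IGKC, given above. PEBP1, a phosphatidylethanolamine-binding protein, was at 160, 65.8 and 1.33 CPM at 24 months and at 0.573 to 2.04 CPM at 12 months, and LOC102171893, vomeromodulin-like, at 107, 80.8 and 0.322 CPM against 0.709 to 6.01 CPM. In both, 24-month replicate 3 stood with the 12-month libraries. LOC102179937, a class II histocompatibility antigen, had 0 counts in 12-month replicate 3 and in 24-month replicate 3, and 18.8 to 50.25 CPM elsewhere. LOC108634081 and LOC102181054, copies of the ribosomal proteins S2 and L9, were near 0 in some libraries of each age and above 100 CPM in others, and their reads may be shared with the parent genes. AGPAT6, an acyltransferase, was at 29.2, 0 and 36.4 CPM at 24 months, and the uncharacterized TCONS_00050903 at 65.7, 1.21 and 242 CPM.

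Without 24-month replicate 1, the 127 genes called lower included several whose level in that library matched the 12-month libraries. RGS5, a pericyte regulator of signalling, was at 86.8, 88.1 and 76.2 CPM at 12 months and at 75.8, 15.9 and 19.9 CPM in 24-month replicates 1, 2 and 3. PRPF39, ZRANB2, LUC7L3 and CLK1 were likewise near the 12-month levels in 24-month replicate 1 and lower in replicates 2 and 3. CLK1 was at 96.2, 160.0 and 104.5 CPM and then at 139, 20.9 and 29.5 CPM. For 68 of the 168 genes called, the value of 24-month replicate 1 lay inside the 12-month range. The share of all genes tested with such a value was not counted, so the 68 are not read as a result about the genes called. RGS5, PRPF39, ZRANB2, LUC7L3 and CLK1 were chosen after their values were seen.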

How the data were processed

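Per the labels and methods, the authors removed ribosomal reads (Bowtie2 2.2.8), aligned the rest to the goat genome (TopHat2 2.1.1, build not given), assembled transcripts (Cufflinks) and deposited expected counts from RSEM. Of 52739 transcripts, 10053 were new. Whether counting used strand is not stated. Known transcripts were named through RefSeq identifiers (42652 of 42686 matched), new ones by goat protein hit or symbol. Counts were summed to 21229 genes, rounded, filtered with filterByExpr, scaled with TMM and tested with edgeR 4.0.16 quasi-likelihood (R 4.3.3) on the 6 libraries, with Benjamini-Hochberg adjustment. A floor of 3 counts was 0.135 to 0.146 CPM after TMM scaling. Replicates were different goats, and 3 per age limit the precision. Shares were compared by exact permutation in scipy 1.17.1. The study's FPKM filter could not be applied. The model was run on simulated data that gave both ages the same spread, unlike the libraries here. It called 94 of 98 genes with a simulated log2 change of 3 in either direction, and 7 unchanged genes. Of 100 genes with a simulated log2 change of 1.5 in either direction, 49 had an adjusted p under 0.05. No count column was left unmapped.

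Named genes were the 15 most abundant, the secretory lists, the 12 smallest p per direction without overlap, the 10 largest SD at 24 months and up to 4 members of each of 31 lists. Other genes in the text were chosen after their values were seen. Members and lists were chosen with earlier results of these data known. Alternatives were other scalings, tests, filters and designs, annotated transcripts, single transcripts and leaving out each library. A gene that the rule names is not reported here.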

Additional observations from a re-analysis of the deposited data

How the results depend on the processing

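With 24 against 12 months, 0 genes were called by edgeR's quasi-likelihood test and 1628 had a nominal p under 0.05. DESeq2's Wald test called 12 genes, edgeR's exact test 14, the fit without a filter on low counts 2 and the fit with a replicate block 12, of which 9 were higher and 3 lower. The replicate numbers mark different goats. Same-numbered libraries deviated together at r of -0.099, -0.164 and -0.005, and differently numbered ones at -0.119 to 0.201. Deviations were taken from the mean of the 3 libraries of an age, so these values are tied together and cannot test a pairing. With all 9 libraries 475 genes had a nominal p under 0.05. Leaving out each library gave 0 to 168 genes called and 548 to 6663 genes at a nominal p under 0.05, the highest of both without 24-month replicate 1. The median SD at 24 months was 0.222 to 0.469 with each library left out. The share of the 10 most abundant genes differed by 4.73 percentage points, by -3.68 with annotated transcripts only, and by 1.79 to 8.64 with each library left out. The cause of these differences was not tested. Of 2111 values of 142 genes over these alternatives, 2010 kept their direction and side of the threshold, 61 passed it only under the alternative, and 40, of 19 genes, turned their direction. As 0 genes were called in the main fit, no gene could lose a call, so the 2010 values are no measure of stability. The 142 genes also leave out some genes of the secretory lists that turned, given below.

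With each library left out, the log2 fold changes of these 142 genes that turned their direction ranged as follows: MUC19 -0.12 to 0.56, MUC5B -0.88 to 2.31, LOC108634314 -0.58 to 2.59, TCONS_00061101 -10.29 to 5.06, LTF -3.22 to 2.84, CA6 -0.53 to 0.05, LOC102184534 -0.18 to 0.04, KLRK1 -2.01 to 1.21, CD2 -0.26 to 0.12, CD4 -0.09 to 0.84, CD79A -0.52 to 0.36, IGHA1 -0.26 to 0.35, MZB1 -0.20 to 0.66, CD68 -0.47 to 0.36, COX3 -0.25 to 0.16, ADIPOQ -0.98 to 0.78 and LOC102179937 -0.73 to 1.10. Other genes of the secretory lists also turned, among them PIP (-1.018 to 0.243), ZG16B (-0.819 to 0.749), TFF3 (-1.898 to 0.756), BPIFB6 (-1.78 to 0.121), AGR2 (-0.883 to 0.04), FCGBP (-0.248 to 0.636) and MUC20 (-0.107 to 0.469). With annotated transcripts only, the direction turned for LOC102170799 (-0.39), MUC19 (-0.42), CHRM3 (0.02), CD68 (-0.02). With the replicate block it turned for MUC5B (-0.27), LOC102184534 (0.00), KLRK1 (-0.54), CD68 (-0.09). CD68 was also at -0.04 under upper-quartile scaling, at -0.01 under scaling without the 100 most abundant genes and at -0.0 with all 9 libraries.

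The median of all genes was between -0.03 and 0.04 over the scalings, and the medians of the myoepithelium, endothelium, plasma cell and macrophage lists, all within 0.05 of 0, changed sign between them. The values of lists without each library, and under other scalings, were chosen after seeing the data. The labels do not say whether the goats shared litters or days of slaughter.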

Other observations

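Genes of sterol and fatty acid synthesis were listed after FASN and MVD had been seen among the smallest p, so the list has no test. Of 29 genes, 27 were tested. At a nominal p under 0.05, 12 were higher at 24 months and 1, ELOVL6, was lower, and in 10 every 24-month library lay above every 12-month library. Over all genes tested 8.76% were higher, 2.77% lower and 9.35% above without overlap, and the list holds the FASN and MVD that prompted it. LSS was at 23.3, 33.0 and 27.75 CPM at 12 months and at 50.15, 40.3 and 61.9 CPM at 24 months. SREBF2, the transcription factor of this pathway, was at 188, 235 and 196 CPM and then at 276, 313 and 606 CPM. HMGCS1 and MSMO1, enzymes of the same pathway, overlapped between ages: both were highest in 24-month replicate 1, at 267 and 109 CPM, and 12-month replicate 2 came next, at 137 and 80.3 CPM.

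Without 24-month replicate 1, 2672 genes with an adjusted p under 0.05 in edgeR's quasi-likelihood test were higher and 2114 lower. Among the 168 genes called, which are 1.17% of the genes tested, 18 were described as zinc finger proteins, of 450 such genes tested, and 6 as histones, of 72. These groups were chosen after seeing the data and have no test.

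The median genomic span from the RefSeq annotation was 24.2 kb over all genes tested, 12.7 kb over genes higher at a nominal p under 0.05 and 42.4 kb over genes lower at that threshold. A span was found for 97.5%, 98.9% and 92.1% of these genes.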
